A study of Glycine max with 11 samples.

Results

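Soybean seeds of the cultivar BRS284 were compared between 2 phases of late maturation, all harvested fresh and frozen without drying. The earlier phase held 3 RNA-seq libraries, 2 of stage 7.2 and 1 of stage 7.3, from seeds 63 to 69 days after flowering. The later phase held 3 libraries, 1 each of stages 8.1, 8.2 and 8.3, from seeds 71 to 74 days after flowering. These are 6 of the 11 libraries of the series, chosen by their stage and treatment labels alone. The other 5, of stage 7.1, of stage 9 (harvest maturity) and of stage 7.2 seeds dried after harvest, are used only to show levels outside the comparison. Each library was made from the RNA of whole seeds of farm-grown plants of this 1 cultivar, so embryo and seed coat were read together. In such bulk samples, fewer cells of a type and less RNA per cell cannot be told apart.

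At stage 7.2 filling ends and the seed is physiologically mature but still green to yellow, at stage 7.3 it is yellow, and from stage 8.1 on it loses water, turning light brown by stage 8.3. The phases differ in time after flowering and in water content as well as in stage name, and these cannot be told apart. A maturing legume seed first fills with protein and oil, then builds up protective molecules, among them late embryogenesis abundant (LEA) proteins, soluble sugars of the raffinose family and small heat shock proteins, which shield membranes and proteins while water leaves. It also keeps a store of mRNA in the dry state, from which translation starts when the seed takes up water again. The comparison asks which transcripts differ between the seed that has just finished filling and the seed that is drying on the plant.

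Library totals of the 6 ranged from 13392050 to 34971702 counts, and stage 8.1 was the shallowest. All levels below are counts per 1000000 counts of the library (CPM) after scaling by the trimmed mean of M values (TMM), with the libraries always in the order stage 7.2 replicate 1, stage 7.2 replicate 2, stage 7.3, then stages 8.1, 8.2 and 8.3. CPM are not corrected for gene length, so levels are compared between libraries and not between genes. Of 56044 genes, 26807 passed the filter on low counts and were tested. A gene near 0 in 1 phase could pass the filter by its level in the other phase alone. Over the 16102 genes with a mean of at least 100 counts, the root mean square log2 difference was 0.204 between the replicates of stage 7.2. It was 0.537 and 0.595 between stages 7.2 and 7.3, 0.501 to 0.566 among the 3 later stages and 0.661 to 1.32 between libraries of different phases. The smallest distance across the phases, 0.661, lay between stages 7.3 and 8.1, which are neighbours in time. The maturing seed expressed its own markers in every library: the summed level of the 11 LEA and seed maturation genes lay between 4313 and 20350 CPM.

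Between the phases, 3442 genes were higher at stages 8.1 to 8.3 and 4775 were lower, at a fold change of at least 2 (log2 fold change of 1) and a Benjamini-Hochberg adjusted p under 0.05 in edgeR's quasi-likelihood test. These are 12.8% and 17.8% of the genes tested. The median log2 fold change was 1.46 among the former, -1.71 among the latter and -0.05 over all genes tested. A change of at least 4-fold was seen in 819 of the genes that rose and in 1764 of those that fell. Higher genes took 4.83% to 7.80% of all counts in the earlier phase and 15.4% to 19.1% in the later one, whereas the share of the lower genes went from between 15.2% and 22.7% to between 4.48% and 7.55%. The levels of the phases did not overlap for 3382 of the genes called higher and 4586 of those called lower. Without regard to the test, 28.4% of all genes tested lay higher in every later library than in any earlier one, and 30.1% lay lower. Requiring the fold change itself to exceed 2 in the test (glmTreat) left 1009 higher and 1575 lower genes.

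**Figure D1:**
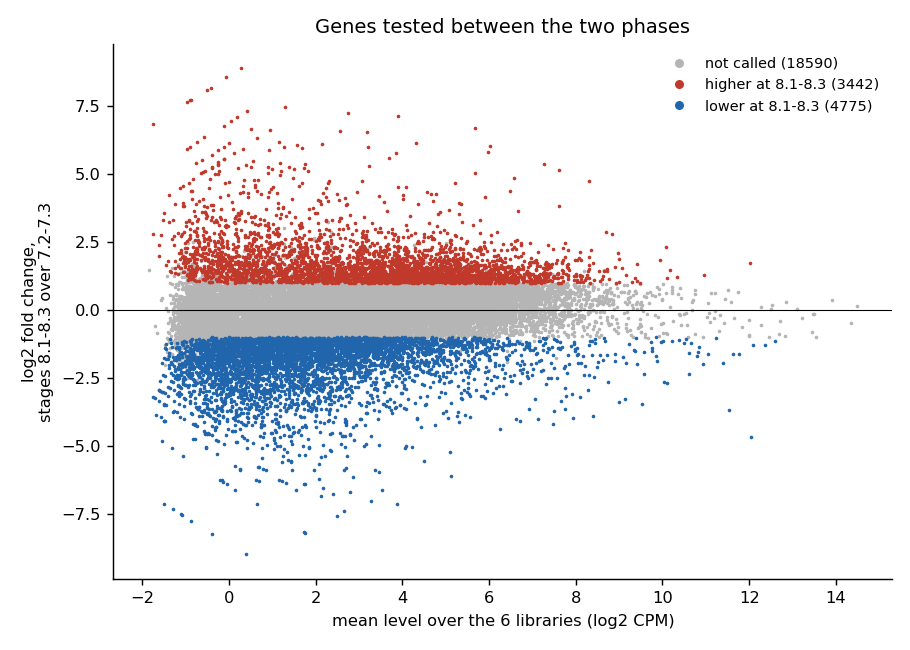
Each point is 1 of the genes tested, with its mean level over the 6 libraries in log2 CPM on the x axis and its log2 fold change between the phases on the y axis. Red points are the 3442 genes called higher at stages 8.1 to 8.3 and blue points the 4775 called lower, and both are found at low and at high levels.

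The stages of a phase served as its replicates, so each test weighs the change between phases against the change between stages. The study calls the stage 7.2 libraries biological replicates and took the seeds of each stage from many plants of 1 crop, but neither the labels nor its methods say which plants went into which replicate, so p-values measure only the spread between these libraries. Where a library is left out below, the counts of a gene list are over the members tested with all 6. Taken stage by stage, genes called higher had median log2 differences of 0.43 from stage 7.2 to 7.3, 0.84 from 7.3 to 8.1, 0.28 from 8.1 to 8.2 and -0.07 from 8.2 to 8.3. For genes called lower the same medians were -0.54, -0.80, -0.32 and 0.05. The step from 7.3 to 8.1 was the largest in the direction of the call for 65.4% of the higher and 52.5% of the lower genes, which the choice of genes by phase favours (41.7% over all genes tested). The largest step was that from stage 7.2 to 7.3 for 611 of the higher (17.8%) and 1446 of the lower genes (30.3%). Over all genes tested that share was 26.3%. Of the higher genes 844 (24.5%) and of the lower 1092 (22.9%) moved in the direction of the call at all 4 steps. Over all genes tested 12.5% moved in the direction of their fold change at every step, and the choice of genes by phase favours this difference too. With 1 library per stage after 7.2, none of these steps was tested; the median absolute difference between the stage 7.2 replicates was 0.14 for the higher and 0.17 for the lower genes.

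**Figure D2:**
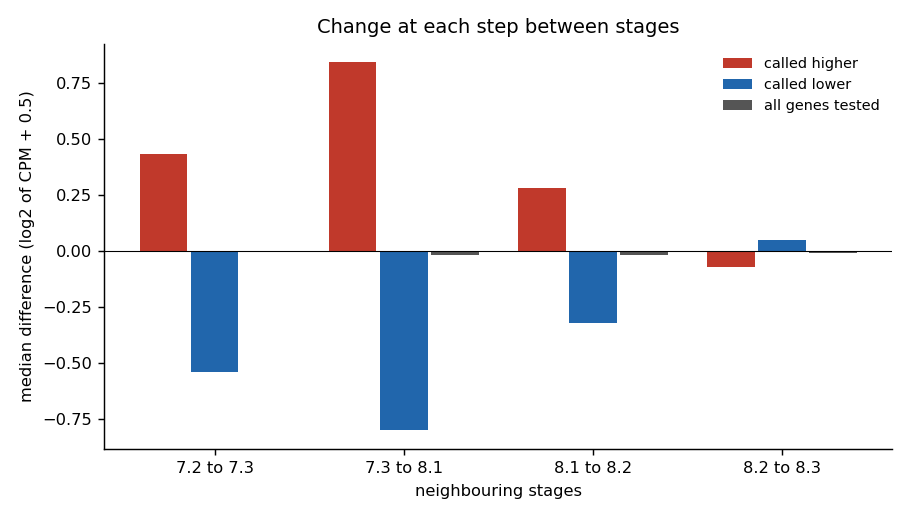
Bars give the median log2 difference (of CPM + 0.5) at each step between neighbouring stages for the genes called higher (red), the genes called lower (blue) and all genes tested (grey). The step from stage 7.3 to 8.1 was the largest for both called groups, at 0.84 and -0.80, and the last step was near 0 for both.

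Small heat shock proteins, chaperones that bind unfolding proteins and hold them for later refolding, rose almost as a family. Of 28 members 26 were tested, and 24 of these were higher at stages 8.1 to 8.3 (92.3%, against 12.8% of all genes tested). None was lower and 2 were not called. Members near 0 at stages 7.2 to 7.3, such as Glyma.07G200700 below, passed the filter on low counts by their later levels alone. Such members could be called higher but not lower. Their median log2 fold change was 3.91, against -0.05 over all genes tested. The summed level of the 28 was 409, 423 and 601 CPM at stages 7.2 to 7.3 and 1500, 2193 and 7079 CPM at stages 8.1, 8.2 and 8.3. It stood at 7804 and 8686 CPM in the 2 libraries of stage 9 and at 2053 and 3490 CPM in dried stage 7.2 seeds. Of the 28, 26 come from the study's list of genes higher at stage 9 than in dried stage 7.2 seeds, a choice made on libraries that are not among the 6.

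The largest change of the family was that of Glyma.07G200700, a class I (cytosolic) member, at 0.326, 0.0648 and 0.208 CPM at stages 7.2 to 7.3 and 1.55, 17.1 and 69.8 CPM at stages 8.1, 8.2 and 8.3 (log2 fold change 7.14 ± 1.36 SE, adjusted p = 0.00496). It was close to the limit of detection in the earlier phase and climbed at each of the later stages. Glyma.06G134900, a homologue of the plastid protein HSP21, went from 1.03, 0.583 and 1.35 CPM to 35, 30.5 and 236 CPM (log2 fold change 6.70 ± 0.957 SE, adjusted p = 0.00251). Here the level jumped between stages 7.3 and 8.1, was about level at 8.2 and jumped again at 8.3. The class II gene Glyma.14G099900 was measured at 0.163, 0.0972 and 0.364 CPM at stages 7.2 to 7.3 and 0.811, 9.94 and 42.7 CPM at stages 8.1, 8.2 and 8.3 (log2 fold change 6.53 ± 1.34 SE, adjusted p = 0.00639). Glyma.14G100000, another class II gene, went from 0.109, 0.292 and 0.364 CPM to 1.33, 4.63 and 12.6 CPM (log2 fold change 4.68 ± 0.846 SE, adjusted p = 0.00425). The identifiers of the 2 follow each other and their names are the same. The study describes its mapped reads as unambiguous, so reads shared by the 2 may not have been counted. The same holds for the 5 class I genes from Glyma.13G175700 to Glyma.13G176500.

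A further 2 class I genes followed the same course. Glyma.08G068800 was at 3.18, 1.17 and 2.34 CPM at stages 7.2 to 7.3 and 16.4, 104 and 251 CPM at stages 8.1, 8.2 and 8.3 (log2 fold change 5.79 ± 0.947 SE, adjusted p = 0.00323). Glyma.13G176200 went from 0.598, 0.551 and 0.468 CPM to 5.16, 15.9 and 96 CPM (log2 fold change 6.15 ± 1.10 SE, adjusted p = 0.00408). In both, stage 8.3 held the highest level of the 6 libraries and stage 9 was higher still (412 and 618 CPM for the former and 165 and 207 CPM for the latter).

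Some members already had over 90 CPM before drying began, among them Glyma.14G063700 and Glyma.14G063800, both picked after their values were seen. Glyma.14G063700 went from 138, 157 and 286 CPM to 496, 301 and 1651 CPM (log2 fold change 2.08 ± 0.615 SE, adjusted p = 0.0246). The call of this gene was lost without either stage 7.2 replicate or stage 8.3 (adjusted p = 0.0831, 0.0743 and 0.061). Glyma.14G063800 went from 96.6, 108 and 142 CPM to 416, 391 and 1607 CPM (log2 fold change 2.80 ± 0.563 SE, adjusted p = 0.0059). The log2 fold changes of both were smaller than those of the genes that began near 0. A second HSP21 homologue that the study names, Glyma.08G318900, stayed low throughout, at 0.0815, 0.0648 and 0.364 CPM at stages 7.2 to 7.3 and 1.11, 3.89 and 11.3 CPM at stages 8.1, 8.2 and 8.3, though its log2 fold change was 5.19 (adjusted p = 0.0046). The study's sHSP17a gene, Glyma.17G224900, did not pass the filter. It had 3, 0 and 0 counts in the earlier and 0, 3 and 39 counts in the later libraries, and 195 and 237 counts at stage 9. The study's sHSP17b gene, Glyma.14G099900, is described above. The 2 tested members that were not called were Glyma.04G184300 (log2 fold change -0.14) and Glyma.04G054500 (-0.32).

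**Figure D3:**
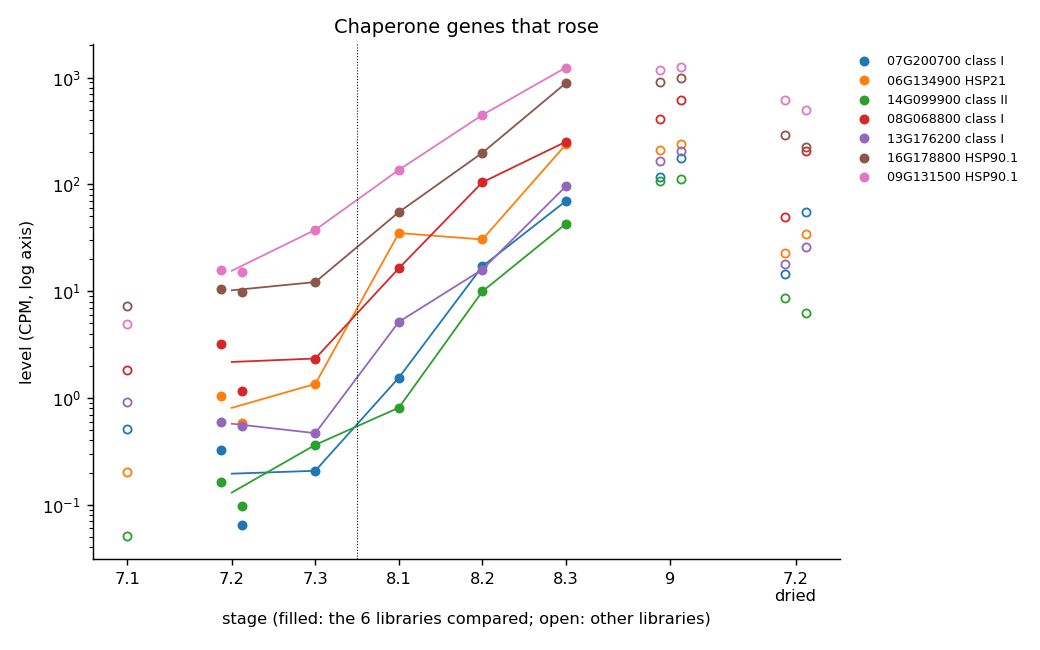
Levels in CPM (log axis) of 5 small heat shock protein and 2 HSP90 genes by stage. Filled points are the 6 libraries compared, joined through the mean of the stage 7.2 replicates, the dotted line parts the phases, and open points are stage 7.1, stage 9 and dried stage 7.2 libraries. All 7 genes climbed from stage 7.3 to 8.3, and the HSP90 gene Glyma.09G131500 reached 1241 CPM.

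Other chaperones rose less evenly. Of 35 members 28 were tested, 16 were higher (57.1%, against 12.8% of all genes tested) and 2 were lower (7.14%, against 17.8%). The median log2 fold change was 1.32. Of the 35, 26 come from the study's list of genes higher at stage 9 than in dried stage 7.2 seeds. The HSP90 homologues led, a family of ATP-driven chaperones that fold signalling proteins and, in plants, hold heat shock factors inactive. Glyma.16G178800 was at 10.5, 9.85 and 12.2 CPM at stages 7.2 to 7.3 and 54.9, 197 and 888 CPM at stages 8.1, 8.2 and 8.3 (log2 fold change 5.13 ± 0.932 SE, adjusted p = 0.0043), and Glyma.09G131500 at 15.8, 15.3 and 37.5 CPM at stages 7.2 to 7.3 and 136, 446 and 1241 CPM at stages 8.1, 8.2 and 8.3 (log2 fold change 4.74 ± 0.813 SE, adjusted p = 0.00364). The second of them reached 1241 CPM, and in both the levels climbed at every step after stage 7.3. Mitochondrial HSP70 (Glyma.07G184300, log2 fold change 2.05), a ClpB disaggregase (1.65 for Glyma.04G062200) and a GrpE co-chaperone (1.79 for Glyma.18G090400) also rose. These 3 were singled out after their values were seen. Of the 2 lower genes, both DnaJ co-chaperones, Glyma.10G014000 went from 14.8, 13.4 and 18.7 CPM to 8.92, 5.72 and 5.84 CPM (log2 fold change -1.20 ± 0.235 SE, adjusted p = 0.00541). Leaving out stage 7.3 gave 3 lower genes, and leaving out any 1 of the other libraries gave 1.

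Heat shock factors, a family of transcription factors that regulate chaperone genes, did not move together. Of 12 members 9 were tested, 3 were higher (33.3%, against 12.8% of all genes tested) and 4 were lower (44.4%, against 17.8%). The HSFB2a homologue Glyma.20G156800 was at 89.9, 99 and 97.4 CPM at stages 7.2 to 7.3 and 109, 202 and 423 CPM at stages 8.1, 8.2 and 8.3 (log2 fold change 1.36 ± 0.428 SE, adjusted p = 0.0312). Glyma.03G157300, an HSFA6b homologue, went from 3.67, 3.66 and 5.57 CPM to 7.45, 8.88 and 11.3 CPM (log2 fold change 1.11 ± 0.256 SE, adjusted p = 0.00948), and the HSFA3 homologue Glyma.03G191100 from 6.44, 5.22 and 8.95 CPM to 9.88, 16.1 and 15.8 CPM (log2 fold change 1.03 ± 0.270 SE, adjusted p = 0.0155). All 3 calls were close to a threshold, since none of the factors was called higher without stage 7.2 replicate 1 or without stage 8.3, 1 without stage 7.2 replicate 2 or stage 8.2, and 5 without stage 8.1.

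The 4 factors that fell had larger changes than those that rose. The seed-specific factor HSFA9 drives small heat shock protein genes during seed maturation in other species. Its homologue Glyma.17G053700 was at 1719, 2055 and 1645 CPM at stages 7.2 to 7.3 and 552, 70.7 and 256 CPM at stages 8.1, 8.2 and 8.3 (log2 fold change -2.63 ± 0.631 SE, adjusted p = 0.0113), and a second one, Glyma.13G105700, went from 342, 395 and 293 CPM to 121, 40.9 and 72.3 CPM (log2 fold change -2.14 ± 0.374 SE, adjusted p = 0.00381). Both HSFA9 genes, described here after their values were seen, were lowest at stage 8.2. Glyma.17G174900, annotated as heat shock factor 34, went from 45.3, 50.2 and 32.7 CPM to 7.08, 2.24 and 5.26 CPM (log2 fold change -3.16 ± 0.387 SE, adjusted p = 0.00221), and its paralogue Glyma.05G095900 from 7.94, 9.17 and 7.96 CPM to 1.55, 0.687 and 1.59 CPM (log2 fold change -2.73 ± 0.324 SE, adjusted p = 0.00221). Whichever library was left out, 4 factors were called lower.

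LEA and seed maturation proteins, disordered proteins that protect the cell as water leaves, fell in mRNA level. All 11 members were tested, and 9 were lower (81.8%, against 17.8% of all genes tested). Of the others 1 was higher (9.09%, against 12.8%) and 1 was not called, and the median log2 fold change was -1.38. Their summed level was 16430, 20350 and 17330 CPM at stages 7.2 to 7.3 and 9078, 4313 and 8931 CPM at stages 8.1, 8.2 and 8.3. Stage 8.2 was the lowest of the 6, and the sum was 9979 and 11690 CPM at stage 9. Leaving out stage 7.2 replicate 2 or stage 8.2 left 5 of the members called lower. Of the 11, 8 come from the study's list of genes lower at stage 9 than in dried stage 7.2 seeds and 2 from its list of higher ones.

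PM25, Glyma.20G147600, and a group 5 LEA gene, Glyma.10G027600, were picked after their values were seen. PM25 was at 6608, 8576 and 7295 CPM at stages 7.2 to 7.3 and 3795, 2005 and 3447 CPM at stages 8.1, 8.2 and 8.3 (log2 fold change -1.28 ± 0.350 SE, adjusted p = 0.0182), and the group 5 gene at 5661, 6985 and 5682 CPM at stages 7.2 to 7.3 and 2828, 1471 and 3312 CPM at stages 8.1, 8.2 and 8.3 (log2 fold change -1.27 ± 0.369 SE, adjusted p = 0.0232). Both were lowest at stage 8.2 and did not overlap between the phases. PM25 lost its call without stage 7.2 replicate 2 (adjusted p = 0.0626), and the group 5 gene lost it without either stage 7.2 replicate or stage 8.1 (adjusted p = 0.0522 to 0.0728) or without stage 8.2 (log2 fold change -0.94). By the rule for named genes the largest changes among well-counted members were those of the LEA-like gene Glyma.01G174100, from 74.4, 76 and 77.9 CPM to 33.6, 11.5 and 9.95 CPM (log2 fold change -2.06 ± 0.431 SE, adjusted p = 0.0068), and of a D-34 type gene, Glyma.U018200, from 171, 203 and 208 CPM to 118, 52 and 50.1 CPM (log2 fold change -1.41 ± 0.338 SE, adjusted p = 0.0113), which lost its call without stage 8.2 (adjusted p = 0.0514). The single member that rose, the D-34 type gene Glyma.10G159400, was scarce, at 3.02, 4.34 and 6.40 CPM at stages 7.2 to 7.3 and 9.36, 10.8 and 39.9 CPM at stages 8.1, 8.2 and 8.3 (log2 fold change 2.15 ± 0.570 SE, adjusted p = 0.0164). It lost its call without stage 7.2 replicate 1 (adjusted p = 0.0584).

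**Figure D4:**
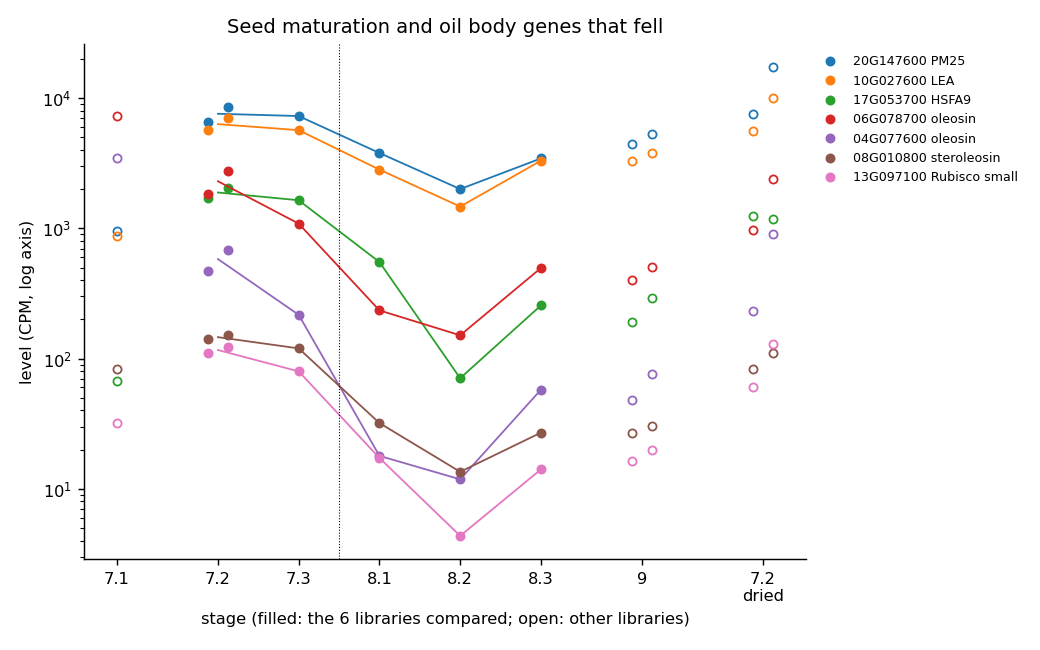
Levels in CPM (log axis) of 7 genes that fell, with the same layout as the plot of chaperone genes. PM25 and the group 5 LEA gene were at no less than 2005 and 1471 CPM, whereas the oleosin gene Glyma.04G077600 dropped to 11.8 CPM at stage 8.2, the stage at which all 7 were lowest among the 6 libraries.

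Oil body genes fell further. Oleosins, the proteins that coat the seed's oil droplets, had 3 members, all of them lower and none overlapping between the phases. Of all genes tested, 17.8% were called lower and 30.1% lay lower without overlap. Of the 3, 2 come from the study's list of genes lower at stage 9 than in dried stage 7.2 seeds and 1 from its list of higher ones. Glyma.06G078700 was at 1851, 2752 and 1088 CPM at stages 7.2 to 7.3 and 235, 151 and 496 CPM at stages 8.1, 8.2 and 8.3 (log2 fold change -2.69 ± 0.517 SE, adjusted p = 0.00509), and Glyma.04G077600 at 474, 688 and 217 CPM at stages 7.2 to 7.3 and 17.9, 11.8 and 57.7 CPM at stages 8.1, 8.2 and 8.3 (log2 fold change -3.98 ± 0.680 SE, adjusted p = 0.00361). Both had dropped before stage 7.2, from 7267 and 3495 CPM at stage 7.1, and were lower again at stage 7.3. The third, Glyma.20G196600, went from 22.3, 29 and 14.9 CPM to 5.90, 4.99 and 9.22 CPM with a log2 fold change of -1.72. A steroleosin, Glyma.08G010800, another oil body coat protein and like the third oleosin outside the rule for named genes and chosen after its values were seen, went from 142, 151 and 119.8 CPM to 32, 13.5 and 27 CPM (log2 fold change -2.51 ± 0.313 SE, adjusted p = 0.00224).

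In the wider list of oil body and lipid genes, 14 of 22 were tested, and the median log2 fold change was -1.0. In it 7 were lower (50%, against 17.8% of all genes tested) and 3 higher (21.4%, against 12.8%). The microsomal omega-6 desaturase Glyma.20G111000, which makes linoleic acid and was also chosen after its values were seen, was at 232, 344 and 89.9 CPM at stages 7.2 to 7.3 and 54.5, 43.5 and 85 CPM at stages 8.1, 8.2 and 8.3 (log2 fold change -1.86 ± 0.466 SE, adjusted p = 0.0131). Without stage 8.2 its adjusted p was 0.063. In the other direction, an acyl carrier protein of fatty acid synthesis, Glyma.10G158500, went from 6.04, 4.44 and 9.52 CPM to 21.4, 29.2 and 21.5 CPM (log2 fold change 1.86 ± 0.290 SE, adjusted p = 0.00295), and a class 3 lipase, Glyma.03G159000, from 92, 81.6 and 123 CPM to 285, 242 and 123 CPM (log2 fold change 1.13 ± 0.322 SE, adjusted p = 0.0214). The lipase overlapped between the phases and lost its call in 5 of 12 alternatives, 4 of which left out 1 library. Without either stage 7.2 replicate or without stage 8.2 only 1 gene of the list was called higher.

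Of 5 genes of the raffinose family sugars, 1 was lower, a share (20%) near that of all genes tested (17.8%), and none was higher. All 5 come from the study's list of genes lower at stage 9 than in dried stage 7.2 seeds. Stachyose synthase, Glyma.19G217700, which adds galactose to raffinose, was at 2208, 2517 and 2331 CPM at stages 7.2 to 7.3 and 1206, 385 and 759 CPM at stages 8.1, 8.2 and 8.3 (log2 fold change -1.59 ± 0.403 SE, adjusted p = 0.0138), and its adjusted p was 0.05 without stage 8.3. The raffinose synthase Glyma.06G179200 was lower in each later library than in any earlier one, at 1398, 1679 and 1229 CPM at stages 7.2 to 7.3 and 739, 435 and 1174 CPM at stages 8.1, 8.2 and 8.3, but was not called (log2 fold change -0.87 ± 0.367 SE, adjusted p = 0.0805). It was called without stage 8.3, at a log2 fold change of -1.24 (adjusted p = 0.0289). Galactinol synthase makes the galactose donor of the pathway, and its 3 genes peaked at stage 7.3, within the earlier phase. Glyma.20G094500 was at 44.3, 41.3 and 133 CPM at stages 7.2 to 7.3 and 60.6, 34.3 and 36.2 CPM at stages 8.1, 8.2 and 8.3, with a log2 fold change of -0.74 (adjusted p = 0.213). Glyma.03G229800 was at 18.2, 17.9 and 32.4 CPM at stages 7.2 to 7.3 and 25, 12.7 and 16.8 CPM at stages 8.1, 8.2 and 8.3 (log2 fold change -0.33, adjusted p = 0.403). The third, Glyma.10G145300, was at 431, 482 and 1160 CPM at stages 7.2 to 7.3 and 1110, 525 and 698 CPM at stages 8.1, 8.2 and 8.3 (log2 fold change 0.17, adjusted p = 0.767).

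Starch and sucrose genes gave 5 lower of 12 tested (41.7%, against 17.8% of all genes tested) and 1 higher (8.33%, against 12.8%). The median log2 fold change was -0.51. The alpha-amylase Glyma.01G115000, an enzyme of starch breakdown, was at 258, 277 and 274 CPM at stages 7.2 to 7.3 and 122, 39.98 and 93.3 CPM at stages 8.1, 8.2 and 8.3 (log2 fold change -1.67 ± 0.365 SE, adjusted p = 0.008). Sucrose synthase Glyma.15G182600 went from 9.87, 9.53 and 5.93 CPM to 3.69, 3.16 and 4.01 CPM (log2 fold change -1.23 ± 0.253 SE, adjusted p = 0.00647). A starch synthase I gene, Glyma.06G129400, went the other way, from 4.92, 4.41 and 9.36 CPM to 33.3, 43 and 26.2 CPM (log2 fold change 2.47 ± 0.325 SE, adjusted p = 0.00231). With 1 library left out, 2 members were called lower without either stage 7.2 replicate or stage 7.3, 3 without stage 8.2 or 8.3 and 4 without stage 8.1.

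Histone genes, whose products package DNA, rose nearly as a group. Of 17 members 16 were tested, and 14 of these rose (87.5%, against 12.8% of all genes tested). Of the others 1 fell (6.25%, against 17.8%) and 1 was not called, and the median log2 fold change was 2.03. The summed level was 76.9, 76.7 and 72.7 CPM at stages 7.2 to 7.3 and 169, 229 and 204 CPM at stages 8.1, 8.2 and 8.3, and the phases did not overlap. Outside the comparison the sum was 165.8 CPM at stage 7.1, near that of stage 8.1, and 173.5 and 169 CPM at stage 9. The earlier phase thus lay below the stages on both sides of it in the sum. Of the 16 tested, 11 were higher at stage 9 than at stage 7.1. The histone H4 gene Glyma.02G224100 was at 1.11, 1.00 and 2.29 CPM at stages 7.2 to 7.3 and 16.9, 24.9 and 25.2 CPM at stages 8.1, 8.2 and 8.3 (log2 fold change 3.97 ± 0.347 SE, adjusted p = 0.00221), and another H4 gene, Glyma.14G190800, went from 4.59, 4.31 and 6.29 CPM to 16, 23.7 and 22.3 CPM (log2 fold change 2.04 ± 0.231 SE, adjusted p = 0.00221). In both the largest step was that from stage 7.3 to 8.1. The exception was an H2B gene, Glyma.11G191600, at 28, 25.2 and 22.7 CPM at stages 7.2 to 7.3 and 4.72, 0.824 and 2.03 CPM at stages 8.1, 8.2 and 8.3 (log2 fold change -3.38 ± 0.499 SE, adjusted p = 0.00267). Of the 17, 15 come from the study's list of genes higher at stage 9 than in dried stage 7.2 seeds. H4 copies are nearly identical, and the study describes its mapped reads as unambiguous, so reads shared among the copies may not have been counted.

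Of 9 cytosolic ribosomal protein genes tested, 4 fell (44.4%, against 17.8% of all genes tested) and 1 rose (11.1%, against 12.8%). Of the 10 members, 5 come from the study's list of genes lower at stage 9 than in dried stage 7.2 seeds and 3 from its list of higher ones. The gene that rose, the RPL10 homologue Glyma.18G050600, was at 5.49, 3.27 and 13.2 CPM at stages 7.2 to 7.3 and 119, 277 and 499.7 CPM at stages 8.1, 8.2 and 8.3 (log2 fold change 5.37 ± 0.704 SE, adjusted p = 0.00231), and it was higher still in dried stage 7.2 seeds (680.0 and 1413 CPM). The L24 gene Glyma.17G206800 went from 15.9, 17.2 and 10.5 CPM to 5.38, 3.07 and 3.91 CPM (log2 fold change -1.83 ± 0.278 SE, adjusted p = 0.00279), and an L37a gene, Glyma.01G203600, from 9.40, 8.36 and 5.20 CPM to 2.51, 1.56 and 2.85 CPM (log2 fold change -1.74 ± 0.320 SE, adjusted p = 0.00444). Leaving out 1 library at a time left 3 to 5 of the list lower.

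Transcripts for photosynthesis were measured in 2 lists that behaved differently. Of 9 nuclear genes 7 were tested, 4 fell (57.1%, against 17.8% of all genes tested) and 2 rose (28.6%, against 12.8%). The median log2 fold change was -1.35. The Rubisco small subunit gene Glyma.13G097100, the nuclear-encoded subunit of the enzyme that fixes carbon dioxide, was at 109.8, 123 and 79.8 CPM at stages 7.2 to 7.3 and 17.2, 4.35 and 14.1 CPM at stages 8.1, 8.2 and 8.3 (log2 fold change -3.14 ± 0.461 SE, adjusted p = 0.00264). Glyma.01G050900, a PsbQ-like gene of the oxygen-evolving complex, went from 8.94, 12.1 and 5.46 CPM to 2.58, 0.321 and 0.241 CPM (log2 fold change -3.22 ± 0.757 SE, adjusted p = 0.0104). Unlike these, Glyma.11G100800, a photosystem II assembly factor, went from 17, 18.7 and 22.1 CPM to 54.9, 63.9 and 112 CPM (log2 fold change 2.0 ± 0.283 SE, adjusted p = 0.00247). Without stage 8.2, 2 genes were called lower.

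Genes of the nuclear assembly that resemble plastid genes, and could have received reads of plastid transcripts, depended on single libraries. Of 92 members 79 were tested, 3 were higher (3.8%, against 12.8% of all genes tested) and none was lower, although the median log2 fold change was 0.84. All but 1 of the 92 come from the study's list of genes lower at stage 9 than in dried stage 7.2 seeds. Their summed level was 108, 86 and 314 CPM at stages 7.2 to 7.3 and 136, 761 and 80.04 CPM at stages 8.1, 8.2 and 8.3. Stages 7.3 and 8.2 stood out, and the stage 8.2 library held more than 5 times the level of either neighbour. The PsbA-like gene Glyma.11G162200, a core subunit of photosystem II, was at 0.897, 1.07 and 1.20 CPM at stages 7.2 to 7.3 and 1.47, 28.1 and 2.70 CPM at stages 8.1, 8.2 and 8.3 (log2 fold change 3.37 ± 1.01 SE, adjusted p = 0.0259). A second PsbA-like gene, Glyma.13G028200, was at 0.788, 1.17 and 1.35 CPM at stages 7.2 to 7.3 and 1.18, 27.8 and 2.56 CPM at stages 8.1, 8.2 and 8.3 (log2 fold change 3.28 ± 1.05 SE, adjusted p = 0.0328). Of the 6 libraries, stage 8.2 alone held more than 5 CPM of either gene. Dried stage 7.2 seeds, outside the comparison, held more still, 38.8 and 60.6 CPM of the former and 39.4 and 61.4 CPM of the latter. No gene of the list was called higher without stage 8.2 (where 1 was lower) or without either stage 7.2 replicate, 8 were higher without stage 8.1 and 12 without stage 8.3. Among 4 genes of chlorophyll breakdown, none was called. The 2 NYC1 homologues, which begin the removal of chlorophyll b, had log2 fold changes of -0.51 (Glyma.07G085700) and 0.13 (Glyma.09G191200), and STAYGREEN1, Glyma.01G241600, had -0.37 (adjusted p = 0.0976, 0.616 and 0.347).

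Of 22 abscisic acid (ABA) signalling genes tested, 8 were lower (36.4%, against 17.8% of all genes tested) and 2 were higher (9.09%, against 12.8%), with a median log2 fold change of -0.66. Of the 25 members, 12 come from the study's list of genes lower at stage 9 than in dried stage 7.2 seeds and 3 from its list of higher ones. ABA binds receptors of the PYR/PYL family, which then block type 2C protein phosphatases. A PYL6 receptor gene, Glyma.15G083200, was at 10.5, 16.3 and 9.73 CPM at stages 7.2 to 7.3 and 1.11, 1.47 and 6.37 CPM at stages 8.1, 8.2 and 8.3 (log2 fold change -2.0 ± 0.585 SE, adjusted p = 0.0234). Its call was lost without stage 7.2 replicate 2, stage 8.1 or stage 8.2 (adjusted p = 0.0584 to 0.0896). Another PYL6 gene, Glyma.13G229300, chosen after its values were seen, was at 214, 283 and 329 CPM at stages 7.2 to 7.3 and 235, 267 and 493 CPM at stages 8.1, 8.2 and 8.3 and was not called (log2 fold change 0.27 ± 0.317 SE, adjusted p = 0.506). The 2 genes that rose were phosphatases. Glyma.01G225100, a homologue of highly ABA-induced PP2C gene 3, was at 7.34, 8.81 and 37.6 CPM at stages 7.2 to 7.3 and 46.3, 51.1 and 101 CPM at stages 8.1, 8.2 and 8.3 (log2 fold change 1.90 ± 0.623 SE, adjusted p = 0.0362), and had reached 375 and 524 CPM in the dried stage 7.2 seeds. Glyma.17G029200 went from 3.56, 3.31 and 11.7 CPM to 24, 18.1 and 22.8 CPM (log2 fold change 1.83 ± 0.463 SE, adjusted p = 0.0136). ABA 8'-hydroxylase, Glyma.01G153300, which breaks the hormone down, went from 31.4, 33.7 and 16.1 CPM to 17.9, 3.85 and 4.54 CPM (log2 fold change -1.65 ± 0.573 SE, adjusted p = 0.0437). The calls of the hydroxylase and of Glyma.01G225100 were both lost without either stage 7.2 replicate, stage 8.2 or stage 8.3 (adjusted p = 0.102 to 0.14 and 0.0657 to 0.116), and DESeq2 gave the latter an adjusted p of 0.0517. Without 1 library the number of higher genes ranged from 1 to 4, with 1 without either stage 7.2 replicate or stage 8.2 and 4 without stage 7.3.

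Antioxidant enzymes were evenly divided, with 5 higher and 5 lower of 20 tested (25% each) and a median log2 fold change of -0.05. Over all genes tested 12.8% were higher and 17.8% lower. Catalase removes hydrogen peroxide in peroxisomes. Its gene Glyma.04G017500, picked after its values were seen, was at 306, 280.0 and 715 CPM at stages 7.2 to 7.3 and 1431, 1412 and 1750 CPM at stages 8.1, 8.2 and 8.3 (log2 fold change 1.82 ± 0.390 SE, adjusted p = 0.00741). By the rule for named genes, the glutathione S-transferase Glyma.10G192900 went from 4.59, 2.27 and 2.39 CPM to 15.8, 30.9 and 20.8 CPM (log2 fold change 2.85 ± 0.357 SE, adjusted p = 0.00224), and Glyma.07G102200, of the same enzyme family, from 5.30, 4.37 and 8.27 CPM to 23.7, 31.6 and 25.8 CPM (log2 fold change 2.19 ± 0.260 SE, adjusted p = 0.00221). The lower members were all scarce, with no level above 7.39 CPM in any of the 6 libraries, and 3 genes were called lower without stage 7.2 replicate 1, stage 8.1 or stage 8.2.

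Aquaporins, the water channels, moved in both directions. Of 6 members, all tested, 3 of the 4 plasma membrane (PIP) genes were higher (50% of the list, against 12.8% of all genes tested). Only 2 genes of the list were higher without either stage 7.2 replicate, stage 7.3 or stage 8.3. Of the 2 tonoplast (TIP) genes 1 was lower (16.7% of the list, near the 17.8% of all genes), or 2 without stage 8.3. The tonoplast gene Glyma.16G210000 was at 1034, 1157 and 1079 CPM at stages 7.2 to 7.3 and 429, 153 and 239.5 CPM at stages 8.1, 8.2 and 8.3 (log2 fold change -1.99 ± 0.371 SE, adjusted p = 0.00462). PIP2-7 homologue Glyma.12G172500 went from 8.26, 11.9 and 17 CPM to 40.8, 34.5 and 50.6 CPM (log2 fold change 1.76 ± 0.278 SE, adjusted p = 0.00301). A PIP1 homologue, Glyma.11G023200, was at 5.30, 5.70 and 2.39 CPM at stages 7.2 to 7.3 and 5.31, 8.20 and 50.4 CPM at stages 8.1, 8.2 and 8.3 (log2 fold change 2.24 ± 0.791 SE, adjusted p = 0.0466). Its level rested on stage 8.3, without which the log2 fold change was 0.65 (adjusted p = 0.228), and its phases overlapped. The call was also lost without either stage 7.2 replicate or stage 7.3 (adjusted p = 0.0795 to 0.107) and in DESeq2 (0.0538).

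Cell wall genes, which loosen or build the wall, were lower in 10 of 18 tested (55.6%, against 17.8% of all genes tested). Only 2 were higher (11.1%, near the 12.8% of all genes), and the median log2 fold change was -1.17. Of the 27 members, 12 come from the study's list of genes lower at stage 9 than in dried stage 7.2 seeds. The expansin Glyma.04G167800 was at 9.65, 6.35 and 15.1 CPM at stages 7.2 to 7.3 and 3.46, 3.02 and 3.23 CPM at stages 8.1, 8.2 and 8.3 (log2 fold change -1.67 ± 0.321 SE, adjusted p = 0.00502). A cellulose synthase-like gene, Glyma.13G174300, went from 51.6, 46.4 and 74.1 CPM to 23.9, 3.11 and 12.7 CPM (log2 fold change -2.13 ± 0.587 SE, adjusted p = 0.0189), and its adjusted p was 0.0691 without stage 8.3. The number of lower genes was 5 without stage 8.2 and 6 without stage 7.2 replicate 1. Ubiquitin ligases, which mark proteins for breakdown, were lower in 22 of 62 tested (35.5%, against 17.8% of all genes tested) and higher in 9 (14.5%, near the 12.8% of all genes). Of the 76 members, 50 come from the study's list of genes lower at stage 9 than in dried stage 7.2 seeds. An ARM repeat ligase, Glyma.02G001400, was at 0.435, 0.0972 and 0.988 CPM at stages 7.2 to 7.3 and 10.2, 22.5 and 22.1 CPM at stages 8.1, 8.2 and 8.3 (log2 fold change 5.29 ± 0.617 SE, adjusted p = 0.00221). The RING finger gene Glyma.06G076600 went from 6.66, 3.50 and 20.2 CPM to 78, 64.5 and 36.8 CPM (log2 fold change 2.58 ± 0.596 SE, adjusted p = 0.00966). A further 2 RING finger genes fell, Glyma.01G157400 from 6.99, 6.84 and 4.73 CPM to 1.18, 0.504 and 0.917 CPM (log2 fold change -2.87) and Glyma.13G338400 from 6.33, 7.23 and 8.01 CPM to 1.77, 0.733 and 1.30 CPM (log2 fold change -2.53).

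**Figure D5:**
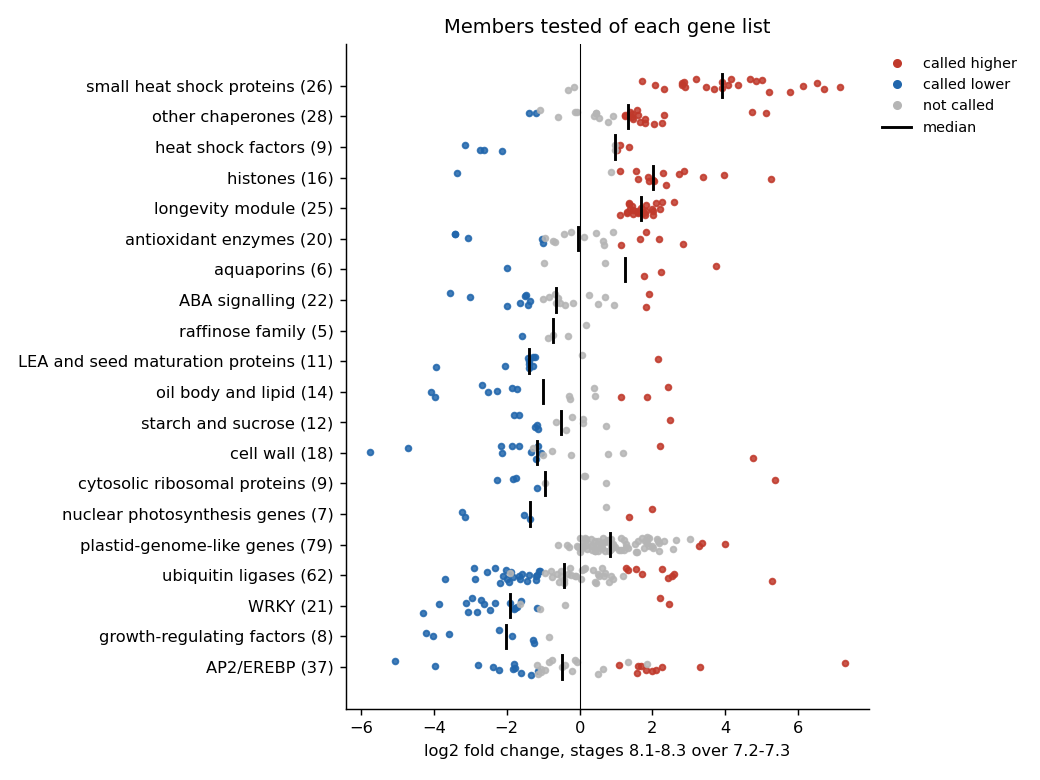
Each point is a tested member of a gene list, placed by its log2 fold change between the phases, red where called higher, blue where called lower and grey where not called. Black bars are list medians, and the number tested is in brackets. Small heat shock proteins (median 3.91) and histones (2.03) lay to the right, growth-regulating factors (-2.03) and WRKY factors (-1.90) to the left.

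A table of transcription factors in the study's co-expression network, chosen for their variation over its fresh libraries, these 6 included, gave 549 genes, of which 327 were tested. This list is the table as read here, and its size is not that of the network in the study's text. In it 162 genes fell (49.5%, against 17.8% of all genes tested) and 64 rose (19.6%, against 12.8%), and the median log2 fold change was -1.27. The study picked a module of these factors because its members followed seed longevity over the same libraries, so its direction here is not independent evidence. The list used here holds 26 of them, fewer than the study's text states. All 25 tested members were higher, and 18 to 25 were higher when 1 library was left out. Their summed level was 542, 476 and 1345 CPM at stages 7.2 to 7.3 and 2427, 2376 and 2877 CPM at stages 8.1, 8.2 and 8.3. The sum at stage 7.3 lay between those of stages 7.2 and 8.1, and dried stage 7.2 seeds, at 3651 and 4272 CPM, were above all 6.

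Ethylene response factors, a group of AP2/EREBP proteins, were among the members of that module that the study names. The ERF110 homologue Glyma.06G148400 was at 43.7, 36.8 and 136 CPM at stages 7.2 to 7.3 and 272, 327 and 444 CPM at stages 8.1, 8.2 and 8.3 (log2 fold change 2.27 ± 0.499 SE, adjusted p = 0.00809). Glyma.08G145300, a second one, went from 7.04, 5.67 and 39.9 CPM to 79, 70.2 and 73.1 CPM (log2 fold change 2.09 ± 0.671 SE, adjusted p = 0.0331), and Glyma.04G217400, the third, from 10.9, 9.75 and 45.2 CPM to 69.7, 61.3 and 69.4 CPM (log2 fold change 1.61 ± 0.542 SE, adjusted p = 0.039). Each of these ERF110 homologues had changed most between stages 7.2 and 7.3. The latter 2 lost their calls when any library but stage 7.3 was left out. Glyma.05G180300, of the EIN3 family that relays the ethylene signal, went from 4.65, 4.28 and 8.17 CPM to 14.2, 24.4 and 30.4 CPM (log2 fold change 2.03 ± 0.345 SE, adjusted p = 0.00357). The largest fold change among the 25 tested was that of Glyma.18G237700, annotated as MYB133, from 5.74, 4.63 and 12.2 CPM to 43.4, 49.6 and 43.1 CPM (log2 fold change 2.60 ± 0.347 SE, adjusted p = 0.00231). Over the AP2/EREBP family 10 of 37 tested rose (27%, against 19.6% of the network list) and 11 fell (29.7%, against 49.5%). Either 5 or 6 were higher without any 1 library except stage 7.3.

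Other factors that the study names moved in both directions. A pair of DREB2 family genes, activators of drought-responsive genes, rose: Glyma.07G156200 from 15.8, 7.19 and 26 CPM to 67.5, 54 and 35.8 CPM (log2 fold change 1.69 ± 0.433 SE, adjusted p = 0.0144) and Glyma.14G056200 from 112, 114 and 179 CPM to 206, 238 and 405 CPM (log2 fold change 1.07 ± 0.313 SE, adjusted p = 0.0238), the latter called in 6 of 12 alternatives. The NFXL1 homologue Glyma.09G173000 went from 13.8, 14 and 36.9 CPM to 57.5, 59.5 and 60.8 CPM (log2 fold change 1.47 ± 0.370 SE, adjusted p = 0.0135). SEPALLATA3 homologue Glyma.20G153700 went from 3.62, 3.37 and 5.62 CPM to 11.3, 10.4 and 11.2 CPM with a log2 fold change of 1.39, and the GATA factor Glyma.17G228700 from 2.99, 2.43 and 6.14 CPM to 12.2, 13.3 and 12.6 CPM with 1.74 (adjusted p = 0.00355 and 0.00505). In the other direction, AINTEGUMENTA-like 6, Glyma.01G022500, a growth regulator of young organs, was at 74.3, 70.5 and 70.7 CPM at stages 7.2 to 7.3 and 20.7, 11.7 and 14.5 CPM at stages 8.1, 8.2 and 8.3 (log2 fold change -2.20 ± 0.225 SE, adjusted p = 0.00221). JACKDAW homologue Glyma.10G051500 went from 34.6, 33.3 and 32.8 CPM to 15.3, 6.27 and 6.90 CPM (log2 fold change -1.84 ± 0.325 SE, adjusted p = 0.00396). ENHYDROUS homologue Glyma.02G058500, a zinc finger protein of germination control, was at 22.5, 28.4 and 18 CPM at stages 7.2 to 7.3 and 5.23, 2.34 and 8.06 CPM at stages 8.1, 8.2 and 8.3 (log2 fold change -2.14 ± 0.402 SE, adjusted p = 0.0047).

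SOMNUS, Glyma.12G205700, a CCCH zinc finger protein that holds back germination in the dark in Arabidopsis, was at 745, 852 and 906 CPM at stages 7.2 to 7.3 and 538, 107 and 114 CPM at stages 8.1, 8.2 and 8.3 (log2 fold change -1.72 ± 0.597 SE, adjusted p = 0.0439). The largest drop came after stage 8.1, and the call was lost without any 1 library except stage 8.1. WRKY6 homologue Glyma.13G310100 went from 43.4, 49.1 and 40.1 CPM to 26.5, 17.4 and 14.9 CPM (log2 fold change -1.17 ± 0.231 SE, adjusted p = 0.00551), and without stage 8.3 its log2 fold change was -0.96. HECATE2 homologue Glyma.11G055300 was at 7.91, 9.91 and 9.05 CPM at stages 7.2 to 7.3 and 8.18, 3.85 and 3.23 CPM at stages 8.1, 8.2 and 8.3 and was not called (log2 fold change -0.83 ± 0.341 SE, adjusted p = 0.0743), but without stage 8.1 it was, at -1.29 (adjusted p = 0.00695).

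Auxin response factors (ARFs), which read the auxin signal at promoters, moved in both directions. Of 11 tested, 6 were lower (54.5%) and 2 were higher (18.2%), near the shares of the network list (49.5% and 19.6%). Both that rose were ARF19 homologues: Glyma.09G072200 from 9.40, 6.48 and 17.8 CPM to 79.1, 80.2 and 50.4 CPM (log2 fold change 2.64 ± 0.378 SE, adjusted p = 0.0025) and Glyma.13G112600 from 15.9, 13.2 and 42 CPM to 82.1, 86.9 and 71.1 CPM (log2 fold change 1.76 ± 0.411 SE, adjusted p = 0.00996). Another ARF19 homologue, Glyma.01G002100, fell, from 7.42, 7.19 and 5.46 CPM to 3.54, 1.88 and 1.16 CPM (log2 fold change -1.65 ± 0.380 SE, adjusted p = 0.00965). The ARF10 homologue Glyma.13G325200 went from 5.65, 6.48 and 3.43 CPM to 1.92, 1.51 and 0.483 CPM (log2 fold change -2.03 ± 0.464 SE, adjusted p = 0.00933). ARF16 (Glyma.10G210600) and ARF4 (Glyma.12G171000) homologues, at most 2.93 and 1.31 CPM, were not called, with log2 fold changes of 0.17 and -0.80. Repressors of auxin response, the Aux/IAA proteins, were lower in 5 of 8 tested (62.5%, against 49.5% of the network list) and higher in none. Glyma.02G142600 went from 8.26, 10.6 and 3.90 CPM to 0.590, 0.275 and 0.338 CPM (log2 fold change -4.30 ± 0.478 SE, adjusted p = 0.00221), and Glyma.20G210500 from 16, 16.2 and 13.8 CPM to 7.30, 5.31 and 4.15 CPM (log2 fold change -1.47 ± 0.231 SE, adjusted p = 0.00298).

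Most of the other families had more lower than higher members, as did the network list they come from (49.5% lower and 19.6% higher). Homeobox, basic helix-loop-helix, GATA, bZIP and GRAS factors, with 41.7% to 59.1% lower, lay near that share. WRKY, MADS-box and growth-regulating factors, with 71.4% to 87.5% lower, lay above it. Growth-regulating factors, which promote cell division in young organs, were lower in 7 of 8 tested and higher in none, with a median log2 fold change of -2.03. Glyma.07G038400 was at 45.1, 37.1 and 41.6 CPM at stages 7.2 to 7.3 and 19.2, 6.27 and 8.84 CPM at stages 8.1, 8.2 and 8.3 (log2 fold change -1.86 ± 0.373 SE, adjusted p = 0.0058), and Glyma.16G007600 went from 54.7, 54.2 and 48.6 CPM to 39.1, 12 and 14.4 CPM (log2 fold change -1.27 ± 0.406 SE, adjusted p = 0.0325). The latter lost its call without any 1 library except stage 8.1, with an adjusted p of 0.0513 to 0.115. WRKY factors were lower in 16 and higher in 2 of 21 tested, and 9 or 10 were lower without stage 7.2 replicate 2, stage 8.2 or stage 8.3. The 2 that rose were well counted, Glyma.15G110300 from 12.8, 9.88 and 34.1 CPM to 79.5, 90.4 and 89.7 CPM (log2 fold change 2.20 ± 0.429 SE, adjusted p = 0.00531) and Glyma.17G057100 from 2.58, 3.27 and 4.01 CPM to 11.9, 18.1 and 23.9 CPM (log2 fold change 2.46 ± 0.297 SE, adjusted p = 0.00221). Homeobox factors were lower in 18 and higher in 9 of 38 tested. The HB6 homologue Glyma.18G014900 was at 221, 276 and 150.4 CPM at stages 7.2 to 7.3 and 74.2, 35.8 and 60.1 CPM at stages 8.1, 8.2 and 8.3 (log2 fold change -1.93 ± 0.325 SE, adjusted p = 0.00347).

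Basic helix-loop-helix factors were lower in 13 and higher in 4 of 22, with 2 higher without stage 7.2 replicate 1. GATA factors were lower in 7 and higher in 1 of 12, and Glyma.17G055200 went from 9.05, 9.30 and 8.22 CPM to 1.62, 0.916 and 0.869 CPM (log2 fold change -3.0 ± 0.284 SE, adjusted p = 0.00221). MADS-box factors were lower in 5 and higher in 1 of 7, and Glyma.19G034500 went from 12.1, 12.2 and 5.36 CPM to 1.11, 0.641 and 0.0965 CPM (log2 fold change -4.10 ± 0.621 SE, adjusted p = 0.00278). MYB factors were lower in 6 of 14 (42.9%, against 49.5% of the network list) and higher in 6 (42.9%, against 19.6%). Among bZIP factors 7 of 15 were lower and 2 were higher, with 1 higher without any 1 library except stage 7.3. Glyma.11G114800, the ATB2 homologue, was at 20.1, 17.9 and 3.54 CPM at stages 7.2 to 7.3 and 0.737, 0.550 and 0.821 CPM at stages 8.1, 8.2 and 8.3 (log2 fold change -4.31 ± 0.651 SE, adjusted p = 0.00276). GRAS factors were lower in 5 and higher in 2 of 12, with none higher without stage 7.2 replicate 1 or stage 8.2 and 1 without stage 7.2 replicate 2 or stage 8.1. LOB factors were higher in 2 of 6 (33.3%, against 19.6% of the network list) and lower in none (against 49.5%).

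Beyond these lists, the largest changes among well-counted genes with a name were taken by rule, 8 in each direction. The rising set held 5 small heat shock proteins, described above, and 3 other genes. A hexokinase, Glyma.08G200600, which phosphorylates glucose at the entry to glycolysis, was at 0.136, 0 and 0.260 CPM at stages 7.2 to 7.3 and 5.90, 15.2 and 14.1 CPM at stages 8.1, 8.2 and 8.3 (log2 fold change 6.58 ± 0.689 SE, adjusted p = 0.00221). Glyma.06G320300, an avirulence-responsive GTPase family gene, went from 0.217, 0.0648 and 0.676 CPM to 10.8, 22.5 and 20.9 CPM (log2 fold change 5.99 ± 0.601 SE, adjusted p = 0.00221). The third, Glyma.11G115500, of unknown function, went from 0.0272, 0.0324 and 0.260 CPM to 5.60, 19.4 and 15.2 CPM (log2 fold change 7.24 ± 0.748 SE, adjusted p = 0.00221). Its earlier level rested on 7 counts in all, so the fold is imprecise. All 3 were highest at stage 8.2 and lower at stage 9.

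In the falling set the lipid transfer protein Glyma.01G130200, a small secreted lipid carrier, was at 89, 106 and 11.9 CPM at stages 7.2 to 7.3 and 1.33, 0.870 and 0.869 CPM at stages 8.1, 8.2 and 8.3 (log2 fold change -6.11 ± 0.822 SE, adjusted p = 0.00233). It had dropped more than 7-fold by stage 7.3 and stood higher than in the later phase in dried stage 7.2 seeds (18.4 and 59.7 CPM). Phosphoenolpyruvate carboxykinase, Glyma.01G019200, which feeds carbon from organic acids into sugar synthesis, went from 11.8, 13.2 and 9.52 CPM to 0.885, 0.229 and 0.145 CPM (log2 fold change -4.93 ± 0.504 SE, adjusted p = 0.00221). Serine acetyltransferase, Glyma.01G160000, the first step of cysteine synthesis, went from 8.02, 9.88 and 1.93 CPM to 0.221, 0.0916 and 0.193 CPM (log2 fold change -5.32 ± 0.730 SE, adjusted p = 0.00237). A sulfur-rich seed protein, Glyma.06G160300, was at 9.95, 8.29 and 2.55 CPM at stages 7.2 to 7.3 and 0.442, 0.0916 and 0.145 CPM at stages 8.1, 8.2 and 8.3 (log2 fold change -5.07 ± 0.692 SE, adjusted p = 0.00237), after 247 CPM at stage 7.1. Matrix metalloproteinases Glyma.02G028100 and Glyma.02G028800 differed between the stage 7.2 replicates by more than most genes did. The former went from 39.1, 10.1 and 2.50 CPM to 0.811, 0.412 and 0.531 CPM (log2 fold change -4.93 ± 0.988 SE, adjusted p = 0.00585) and the latter from 22, 4.28 and 3.17 CPM to 0.516, 0.137 and 0.241 CPM (log2 fold change -5.14 ± 0.931 SE, adjusted p = 0.00425). Glyma.02G021500, a hypersensitive-induced response protein, went from 8.29, 11.7 and 5.51 CPM to 0.295, 0.321 and 0 CPM (log2 fold change -5.39 ± 0.636 SE, adjusted p = 0.00221).

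Genes without a name in the sources changed as much. Glyma.08G227400 was at 1.17, 0.648 and 4.37 CPM at stages 7.2 to 7.3 and 67.8, 87.2 and 229 CPM at stages 8.1, 8.2 and 8.3 (log2 fold change 6.03 ± 0.804 SE, adjusted p = 0.00231), and Glyma.13G291900 went from 0.326, 0.0972 and 1.35 CPM to 13.8, 39.7 and 31.8 CPM (log2 fold change 5.77 ± 0.745 SE, adjusted p = 0.00229). Of those that fell, Glyma.02G255800 went from 8.59, 10.4 and 1.20 CPM to 0.0737, 0 and 0 CPM and Glyma.13G138300 from 10.2, 9.04 and 0.676 CPM to 0.0737, 0 and 0 CPM. Each of the latter had 1 count in the whole later phase, so no fold is given.

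A further 2 well-counted genes stood outside the lists and were picked after their values were seen. Malate synthase, Glyma.17G128000, an enzyme of the glyoxylate cycle that turns oil into sugar in seedlings, was at 191, 119 and 659 CPM at stages 7.2 to 7.3 and 1366, 1030 and 706 CPM at stages 8.1, 8.2 and 8.3 (log2 fold change 1.68 ± 0.601 SE, adjusted p = 0.0489). Its call was lost without any 1 library except stage 7.3 (adjusted p = 0.0636 to 0.144) and in DESeq2 (0.0829). A defensin, Glyma.05G198000, an antimicrobial seed peptide, went from 5052, 5769 and 3461 CPM to 1546, 1050 and 2017 CPM (log2 fold change -1.63 ± 0.356 SE, adjusted p = 0.00793).

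The libraries outside the comparison placed these changes in the longer course of maturation. Stage 9 and dried stage 7.2 seeds entered neither phase. Of the genes called higher at stages 8.1 to 8.3, 2746 (79.8%) had a higher mean log2 level at stage 9 than in dried stage 7.2 seeds, with a median log2 difference of 0.45. Of the genes called lower, 606 (12.7%) did, with a median of -0.56. Over all genes tested the share was 48.7% and the median -0.02. Set against stage 7.1, which also entered neither phase, stage 9 was higher for 86.8% of the genes called higher and 12.4% of those called lower, and for 49.5% of all genes tested, with medians of 1.63, -1.91 and -0.02. Neither contrast was tested. The 2 reference genes of the study were not called between the phases: the proteasome subunit gene Glyma.06G078500 was at 36.2, 36.5 and 32.5 CPM at stages 7.2 to 7.3 and 40.5, 41.8 and 41.8 CPM at stages 8.1, 8.2 and 8.3 (log2 fold change 0.24 ± 0.143 SE, adjusted p = 0.199), and the ribosomal protein gene Glyma.15G271300 at 147, 145 and 197 CPM at stages 7.2 to 7.3 and 161, 124 and 166 CPM at stages 8.1, 8.2 and 8.3 (log2 fold change -0.12 ± 0.210 SE, adjusted p = 0.667).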

How the data were processed

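Total RNA of whole soybean seeds was sequenced as single-end TruSeq libraries. The authors aligned the reads with Bowtie2 to the genome of the cultivar Williams 82 and deposited raw read counts per gene in 1 table. The Bowtie2 version, the counting program and strandedness are not given in the sources used here, so overlapping antisense genes cannot be told apart. The study describes its mapped reads as unambiguous, so reads shared by near-identical paralogues may be missing from the counts. The table held 56044 genes and 1 row without a gene name, with 0 counts, which was left out. Totals of the 6 libraries compared were 13392050 to 34971702 counts.

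Counts were tested with edgeR 4.0.16 (R 4.3.3, limma 3.58.1): filterByExpr by phase, TMM scaling, glmQLFit and glmQLFTest, two-sided, with Benjamini-Hochberg adjusted p over all 26807 genes tested. Genes were called at an adjusted p under 0.05 and a fold of at least 2. Standard errors (SE) are the log2 fold change divided by the root of its F. Steps between stages used log2(CPM + 0.5). The procedure was tested on simulated data, where 169 of 200 genes changed by 2 on the log2 scale were called, with 12 false calls. Alternatives were DESeq2 1.42.0, its size factors, other filters and thresholds, a fit of all 11 libraries, stage 7.2 summed, and each library left out.

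The comparison, members and gene lists were chosen with earlier results of these data known. Lists were assembled by gene name from the study's supplementary tables, of which 2 were read in shortened form, and which as read name 3243 genes, 2500 of them tested. These tables hold genes that varied over the fresh libraries, the 6 included, or differed between stage 9 and dried stage 7.2 seeds, so lists lean to genes that change and got no test. Named genes were the 8 largest changes in each direction among named, called, non-overlapping genes with a mean of at least 100 counts, up to 2 called genes per list and direction by the same minimum, the genes the study names by identifier, and 2 unnamed genes per direction. Genes outside this rule are marked in the text, had no call or are given without values. No gene could be matched by identifier to the reference, so no coordinates or sequences are given. The authors' own fold changes and p-values were not used.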

Additional observations from a re-analysis of the deposited data

How the results depend on the processing

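Dropping the fold threshold gave 5987 higher genes (6404 lower), an adjusted p under 0.01 gave 2958 lower genes (2534 higher), and glmTreat against a fold of 2 gave 1009 higher and 1575 lower genes. Leaving out 1 library at a time gave 2708 to 4998 higher and 3502 to 6620 lower genes, with the highest counts without stage 7.3. DESeq2 called 4221 higher and 5326 lower genes, of which 3344 and 4257 were among those called here. DESeq2's size factors (3625 and 4641, a median shift of 0.0308 on the log2 scale), no filter on low counts (4360 and 6374), at least 10 counts in every library (2498 and 3329), a fit of all 11 libraries (3937 and 5541) and stage 7.2 summed to 1 library (2784 and 3660) all stayed within 1.5 times the main counts.

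Of 124 named genes tested, 113 were called, and 91 of these kept the call in every alternative they could be tested in. Of the 91, 69 were tested in all 12 alternatives run on single genes and 22 in 11. The other 22 called genes lost the call in at least 1, every one of them when a library was left out, and none changed sign. Of 15 called genes described outside the rule for named genes, 10 kept the call, 5 lost it in at least 1 alternative and none changed sign. The cause was not tested. Glyma.06G179200 was called only without stage 8.3 (-1.24) and Glyma.11G055300 only without stage 8.1 (-1.29).

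No paired analysis was possible because stages 7.3, 8.1, 8.2 and 8.3 have 1 library each and no replicate number that links them to the stage 7.2 replicates. These differed by more than counting noise, with a chi-square of 14.5 per gene. With 3 libraries a phase, changes that differ between the stages of a phase have wide errors, and in stage 8.1, the shallowest library, 3 counts equal 0.221 CPM.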
